A study of Mus musculus with 16 samples.

Results

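The 39 genes described here encode the non-collagen part of the scar matrix. They were taken by name: each symbol on a list of matrix glycoproteins, elastic fibre proteins and proteoglycans was looked up in the deposited gene table, and each matched 1 row of its 55401. RNA from whole liver of wild-type mice was sequenced in 16 libraries, 2 in each of 8 groups. The control group received no thioacetamide. The TAA group drank thioacetamide, a hepatotoxin that scars the liver, at 300 mg/L for 8 weeks. The other 6 groups had the same 8 weeks of thioacetamide and then recovered for 1, 2 or 4 weeks, with choline chloride at 3.5 g/L in the drinking water or without it. No group given choline without earlier thioacetamide was analysed here, and the sources used here give no strain, sex or age. Whether the paired libraries of each group are from different animals is unstated, and the p-values therefore reflect the spread between samples alone, which could be technical.

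When the liver scars, activated stellate cells and portal fibroblasts deposit collagen fibres together with the proteins described here. Fibronectin and the matricellular proteins shape how cells attach to and read the matrix. Fibrillins, elastin and fibulins build elastic fibres, and the latent TGF-beta binding proteins (Ltbp1, Ltbp3 and Ltbp4) tether the main profibrotic cytokine to those fibres. Small leucine-rich proteoglycans such as decorin and lumican bind collagen and set fibril width. Hepatocytes themselves secrete vitronectin and plasma fibronectin into the blood.

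Library totals ran from 23.07 to 33.65 in units of 10⁶ counts. The low-count filter kept 17292 genes, among them 37 of the 39. Aspn (asporin) had 1 to 6 counts and Mfap5 (a microfibril protein) 0 to 3 counts in a library, so neither was tested. Replicate 1 of control and replicate 1 of TAA stood apart from the other 14 libraries. Malat1, a nuclear RNA, was at 146 CPM (counts per 10⁶ of the scaled library size) in that control and 1020 CPM in that TAA library, against 5230 to 6800 CPM elsewhere. Neat1, another nuclear RNA, was at 36.8 and 107 CPM in them and at 1960 to 15200 CPM in the other 14. Genes of other lists are given with all 16 libraries only. For the matrix genes, calls that rest on the 2 libraries low in Malat1 are given with and without them. A group that loses a library in such a fit has 1 left, which is assumed to vary like the libraries of the other groups.

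Per unit of transcript length, the levels of the 39 genes spanned several orders of magnitude in the deposited TPM values (transcripts per 10⁶ transcripts). Vtn (vitronectin) ranked the highest in every library with a median of 726 TPM, and Fn1 (fibronectin) ranked next in every library with 213 TPM. Dcn (decorin, 43.9 TPM), Bgn (biglycan, 38.6 TPM), Ecm1 (34.7 TPM) and Sparc (25.9 TPM) followed. Eln (elastin) had a median of 3.20 TPM and Fbn1 (fibrillin 1) 1.57 TPM, while Ltbp4 (12.9 TPM) and Emilin1 (7.97 TPM), also of elastic fibres, lay higher. The large proteoglycan Vcan (versican) was at 0.055 TPM and Aspn at 0.03 TPM, the bottom of the order. On GRCm38, per the deposited table, Ltbp2 spans chr12:84783213-84876495, Tinag chr9:76951693-77045794, Ecm1 chr3:95734147-95739569, Eln chr5:134702593-134747323 and Vcan chr13:89655312-89742509, all on the minus strand, and Pdgfrl chr8:40926233-40990785 on the plus strand. All 6 are annotated as protein-coding.

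The start-site windows of 4 members are printed because these genes carry the results below: Tinag and Ltbp2 had the smallest p after thioacetamide, and Ltbp3 and Ecm1 moved in opposite directions. Each window holds 250 bases before and 50 after the start, on the gene's strand, from RefSeq on GRCm38.p6. A window was found for 26 of the 39 members. The motifs searched on both strands were AP-1 (TGANTCA), the TEAD motif GGAATG and the SMAD-type CAGA box (CAGACA), and matches stand in capitals.
Tinag, chr9:77045732-77046031, minus strand: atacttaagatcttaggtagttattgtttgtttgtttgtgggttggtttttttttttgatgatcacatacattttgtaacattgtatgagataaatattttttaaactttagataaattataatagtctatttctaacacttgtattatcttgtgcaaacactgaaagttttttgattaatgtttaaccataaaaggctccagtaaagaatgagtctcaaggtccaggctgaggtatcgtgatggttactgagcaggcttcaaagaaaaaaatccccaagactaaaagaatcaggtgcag
Ltbp2, chr12:84876442-84876741, minus strand: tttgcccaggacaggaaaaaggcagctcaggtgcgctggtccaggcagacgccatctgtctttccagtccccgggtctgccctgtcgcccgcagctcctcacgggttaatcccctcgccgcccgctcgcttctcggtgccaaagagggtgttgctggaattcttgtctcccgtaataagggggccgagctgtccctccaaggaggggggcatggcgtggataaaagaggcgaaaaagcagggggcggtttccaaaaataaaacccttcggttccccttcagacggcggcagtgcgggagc
Ltbp3, chr19:5740650-5740949, plus strand: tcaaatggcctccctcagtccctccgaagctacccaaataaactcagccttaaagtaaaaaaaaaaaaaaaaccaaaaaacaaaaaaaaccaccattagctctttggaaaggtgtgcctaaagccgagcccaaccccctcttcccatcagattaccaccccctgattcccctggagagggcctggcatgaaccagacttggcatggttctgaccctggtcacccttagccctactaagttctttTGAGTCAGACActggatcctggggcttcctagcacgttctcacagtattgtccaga
Ecm1, chr3:95739520-95739819, minus strand: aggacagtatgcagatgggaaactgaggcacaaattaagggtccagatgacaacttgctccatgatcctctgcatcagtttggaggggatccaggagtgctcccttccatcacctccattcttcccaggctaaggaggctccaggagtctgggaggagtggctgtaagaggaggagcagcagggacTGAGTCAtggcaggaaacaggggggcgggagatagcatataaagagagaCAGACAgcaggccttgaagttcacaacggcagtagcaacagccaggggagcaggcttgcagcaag

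Ltbp3 and Ecm1 hold both an AP-1 match and a CAGA box. In Ltbp3 they overlap at bases 245 to 251 and 250 to 255 of the window, and in Ecm1 they lie apart at bases 187 to 193 and 236 to 241. The Tinag and Ltbp2 windows hold none of the 3 motifs and differ in composition, with 31% G and C and 1 CpG in Tinag against 61% and 20 CpG in Ltbp2. Over the 26 windows, AP-1 was found in 3 (Efemp1, Ltbp3 and Ecm1), TEAD in 3 and the CAGA box in 12. Of 27025 genes with a window, 8.97% held AP-1, 16.6% TEAD and 23.6% the CAGA box. A match describes the letters of the window and does not show that a factor binds there.

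After 8 weeks of thioacetamide, 18 of the 37 tested matrix genes were higher than in control and 2 were lower, at an adjusted p under 0.05 from edgeR's quasi-likelihood test (Benjamini-Hochberg over 17292 genes). Over all genes tested, 10% were called higher, 11% lower and 21% in either direction. The median log2 fold change of the 37 was 1.20 against 0.03 for all genes. By role, the called-higher genes were 9 of 15 elastic fibre and microfibril genes, 5 of 9 fibronectin and matricellular genes, 1 of 7 proteoglycan genes and 3 of 6 others, and both lower genes (Ecm1 and Vtn) were among those others. Both TAA libraries lay above both controls for 28 of the 37 genes and below for 3, against 25.6% and 20.3% of all genes. At an unadjusted p under 0.05 there were 26 of the 37, against 34.6% of all genes.

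**Figure D1:**
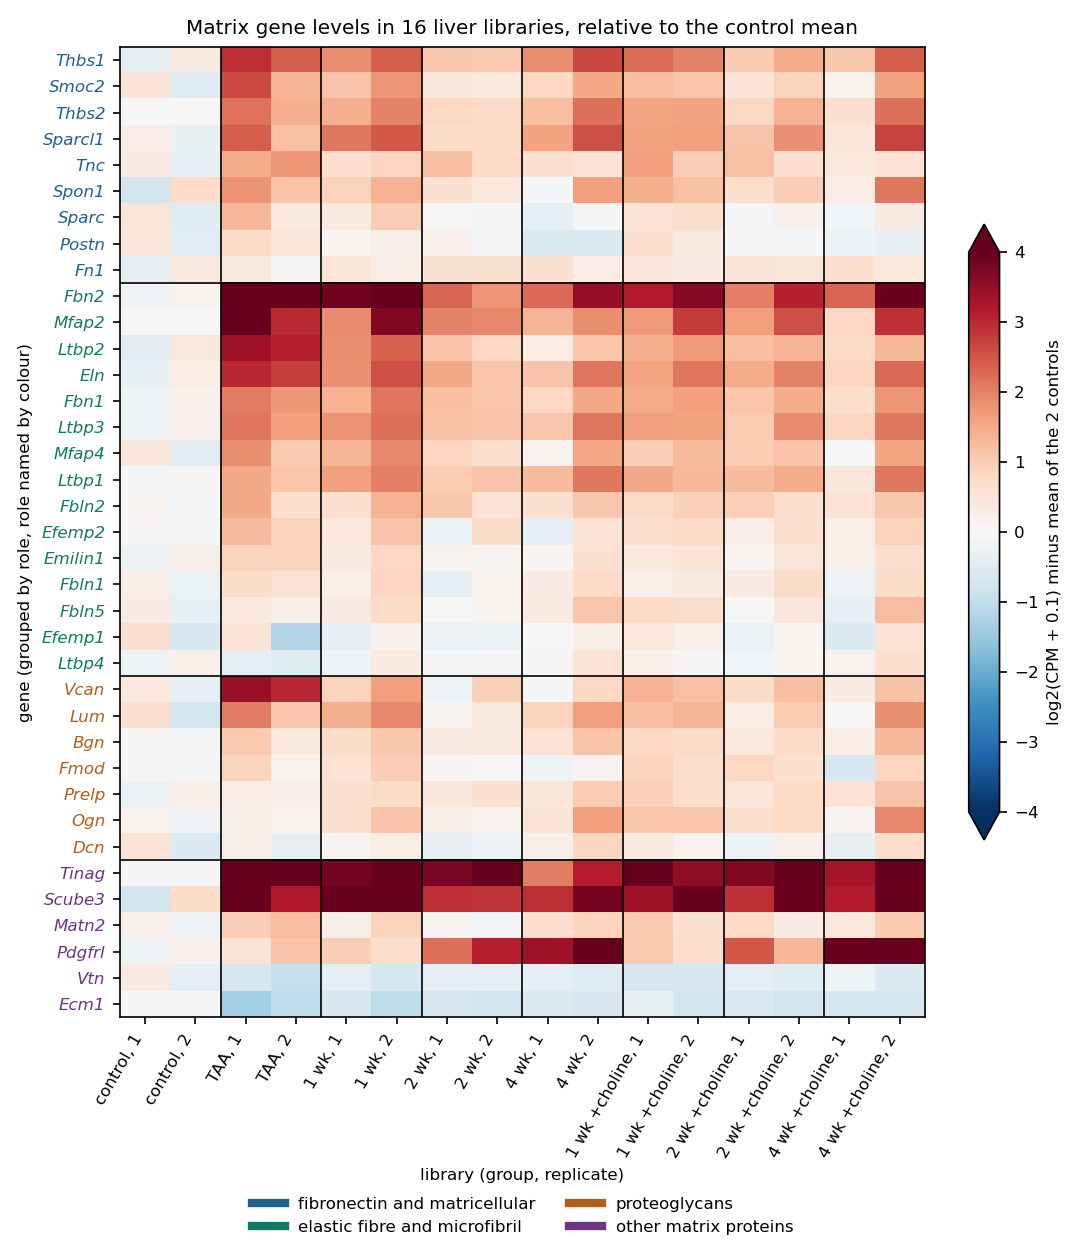
Rows are the 37 tested matrix genes grouped by role, columns the 16 libraries, and colour the log2(CPM + 0.1) minus the mean of the 2 controls, with the scale ending at 4 in either direction. The darkest red stands in Fbn2, Mfap2, Tinag and Scube3 after thioacetamide, Pdgfrl darkens only at 2 and 4 weeks of recovery, and Ecm1 and Vtn are blue after thioacetamide on this CPM scale, where Vtn was higher on the TPM scale.

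Elastic fibre and microfibril genes were the role with the most calls, 9 of the 20. Eln, the elastic core protein, was at 3.61 and 5.41 CPM in the controls and at 36.8 and 30.9 CPM in the TAA libraries. Fbn1, the main microfibril protein, was at 6.90 and 8.90 CPM against 33.1 and 26.5 CPM. Fbn2, a fibrillin best known from development, was at 0.183 and 0.240 CPM against 11.6 and 5.47 CPM. All 3 genes were several-fold higher in both TAA libraries and the groups did not overlap. The log2 fold change was 2.90 ± 0.49 (SE) for Eln with an adjusted p of 0.00218. For Fbn1 it was 1.91 ± 0.36 (adjusted p = 0.00419). That of Fbn2 was 5.29 ± 0.79 (adjusted p = 0.00111), on control counts of 11 in all. Mfap2, a microfibril-associated glycoprotein, had no count in either control and stood at 2.03 and 0.695 CPM after thioacetamide. Taking 3 counts over the control group as the floor, it was at least 24.4-fold higher, and its adjusted p was 0.00955. Emilin1, an elastin interface protein, was at 20.8 and 28.5 CPM against 45.4 and 44.9 CPM, 0.87 ± 0.25 on the log2 scale (adjusted p = 0.0276). Fbln2, a fibulin that binds fibronectin and elastin, was at 2.42 and 2.12 CPM against 6.68 and 3.73 CPM (1.20 ± 0.36, adjusted p = 0.0358).

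Among the latent TGF-beta binding protein genes, Ltbp2 changed the most. It encodes the family member that binds fibrillin but not latent TGF-beta, and was at 0.869 and 1.61 CPM in the controls and 13.5 and 11.0 CPM after thioacetamide. Both TAA libraries were far above both controls, a 9.72-fold difference (log2 3.28 ± 0.38, adjusted p = 0.000322). Ltbp3, a carrier of latent TGF-beta, was at 2.38 and 3.01 CPM against 12.1 and 8.50 CPM (log2 1.93 ± 0.45, adjusted p = 0.0121). Ltbp1, the carrier studied most, was at 3.29 and 3.53 CPM against 9.97 and 7.46 CPM (log2 1.35 ± 0.44, adjusted p = 0.0494). The TAA group lay above control without overlap in both. The fourth gene of the family, Ltbp4, did not pass the test: 64.1 and 83.6 CPM in control and 56.4 and 52.0 CPM after thioacetamide (log2 -0.45 ± 0.24, adjusted p = 0.208).

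Of the matricellular genes, Thbs1, Thbs2, Tnc, Smoc2 and Sparcl1 rose. Thbs1, which encodes thrombospondin 1, an activator of latent TGF-beta, was at 1.05 and 1.81 CPM in control and 11.3 and 7.87 CPM after thioacetamide. Its relative Thbs2 was at 2.65 and 2.57 CPM against 12 and 7.30 CPM. Each TAA library exceeded both controls, and the log2 fold changes were 2.72 ± 0.47 for Thbs1 (adjusted p = 0.00246) and 1.89 ± 0.48 for Thbs2 (adjusted p = 0.0176). Tnc, which encodes tenascin C, an anti-adhesive protein of healing tissue, was at 1.74 and 1.06 CPM against 4.01 and 4.80 CPM (log2 1.66 ± 0.34, adjusted p = 0.00576). Smoc2, a SPARC-related calcium-binding protein, was at 6.68 and 3.22 CPM against 29.8 and 12 CPM (log2 2.09 ± 0.54, adjusted p = 0.0184). Sparcl1, another relative of SPARC, was at 4.75 and 3.18 CPM against 21.4 and 8.91 CPM (log2 1.94 ± 0.62, adjusted p = 0.0459). In Smoc2 and Sparcl1 the first TAA library was more than double the second by these values, though both were above the controls. The 4 others did not pass: Sparc (0.85 ± 0.36), Postn (0.57 ± 0.25), Spon1 (1.44 ± 0.74) and Fn1 (0.13 ± 0.25). Fn1 was at 1010 and 1740 CPM in control and 1730 and 1270 CPM after thioacetamide, so the groups overlapped.

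Versican, a large chondroitin sulfate proteoglycan of provisional matrix, was the only proteoglycan whose gene passed edgeR's test with the low-count filter. Vcan was at 0.366 and 0.171 CPM in control and 3.80 and 2.78 CPM after thioacetamide, 12.4-fold higher (log2 3.63 ± 0.63, adjusted p = 0.00253). None of the 6 tested small leucine-rich proteoglycan genes passed: log2 fold changes were 1.54 ± 0.59 for Lum (lumican), 0.75 ± 0.31 for Bgn, 0.59 ± 0.44 for Fmod (fibromodulin), 0.24 ± 0.24 for Prelp, 0.22 ± 0.53 for Ogn (osteoglycin) and -0.13 ± 0.39 for Dcn, and their 95% intervals allow changes of up to 2.83 for Lum and 0.72 for Dcn. Dcn stood at 135 and 63.4 CPM in the controls and at 109 and 72.9 CPM after thioacetamide, with the TAA libraries inside the control range. On the TPM scale its mean was 26.0 ± 4.31 in control and 52.7 ± 23.2 after thioacetamide (SD, n = 2), so the result for Dcn depended on the scale. The result for Lum and Bgn depended on the test: DESeq2 called Lum higher, and edgeR without the filter called both higher.

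Tinag, which encodes a basement membrane protein first described in kidney tubules, had the smallest p of all members. It had 1 count in each control (0.0457 and 0.0342 CPM) and stood at 12.8 and 8.37 CPM after thioacetamide. From 2 counts in control and 762 in TAA the ratio was 276, with a 95% counting interval of 76.1 to 2280 that covers counting error only, and the adjusted p was 0.000159. Scube3, a secreted EGF-repeat protein, was at 0.0457 and 0.308 CPM against 12.5 and 2.15 CPM (log2 5.25 ± 0.97, adjusted p = 0.00361). Both TAA libraries were above both controls, but they differed widely from each other. The size of the change is uncertain: it rests on 10 control counts, and leaving out TAA replicate 1 gave a log2 fold change of 3.45, leaving out control replicate 2 one of 7.19. Matn2 (matrilin 2, a filament-forming adaptor) was at 1.37 and 0.993 CPM against 2.39 and 2.91 CPM (log2 1.17 ± 0.37, adjusted p = 0.0426).

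Ecm1 and Vtn were the lower genes. Ecm1 encodes a secreted protein that, in mouse liver, holds latent TGF-beta inactive. It was at 106 and 101 CPM in control and 40.6 and 50.9 CPM after thioacetamide, 2.27-fold lower without overlap (log2 -1.18 ± 0.18, adjusted p = 0.0014). Vtn was at 2760 and 1690 CPM against 1370 and 1130 CPM (log2 -0.83 ± 0.24, adjusted p = 0.0289). The direction of Vtn depended on the scale: its mean TPM was 655 ± 2.91 in control and 754 ± 220 after thioacetamide (SD, n = 2), with 7SL RNA genes taking 37.8% to 60.5% of a library's TPM. The size of the Ecm1 fall depended on it too: its mean TPM was 38.1 ± 8.62 in control and 33.4 ± 1.09 after thioacetamide (SD, n = 2), a difference smaller than the spread of the controls. For the 19 called genes other than Vtn the mean TPM moved in the same direction as the counts. Of the genes not called, Dcn, Ltbp4 and Efemp1 were lower after thioacetamide on counts but higher in mean TPM. Summed hepatocyte markers (6 genes) were at 92900 and 76400 CPM in control and 67700 and 58100 CPM in TAA, and their part in the values of Ecm1 and Vtn was not tested.

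Without control replicate 1 and TAA replicate 1, 6 members were called higher (Tinag, Ltbp2, Tnc, Postn, Vcan and Fbn2) and Ecm1 lower, where 15.1% of all genes were called in either direction. With each of the 4 libraries left out in turn, 11 calls held every time: Tinag, Ltbp2, Fbn2, Vcan, Eln, Thbs1, Scube3, Fbn1, Tnc, Mfap2 and Ecm1. Without TAA replicate 1 the other 9 (Thbs2, Sparcl1, Fbln2, Emilin1, Ltbp1, Ltbp3, Smoc2, Matn2 and Vtn) were no longer called, at adjusted p of 0.0556 to 0.287. Without control replicate 1, 8 of them were lost (0.0525 to 0.168), without control replicate 2, 5 (0.0671 to 0.175), and without TAA replicate 2, 4 (0.0732 to 0.14).

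**Figure D2:**
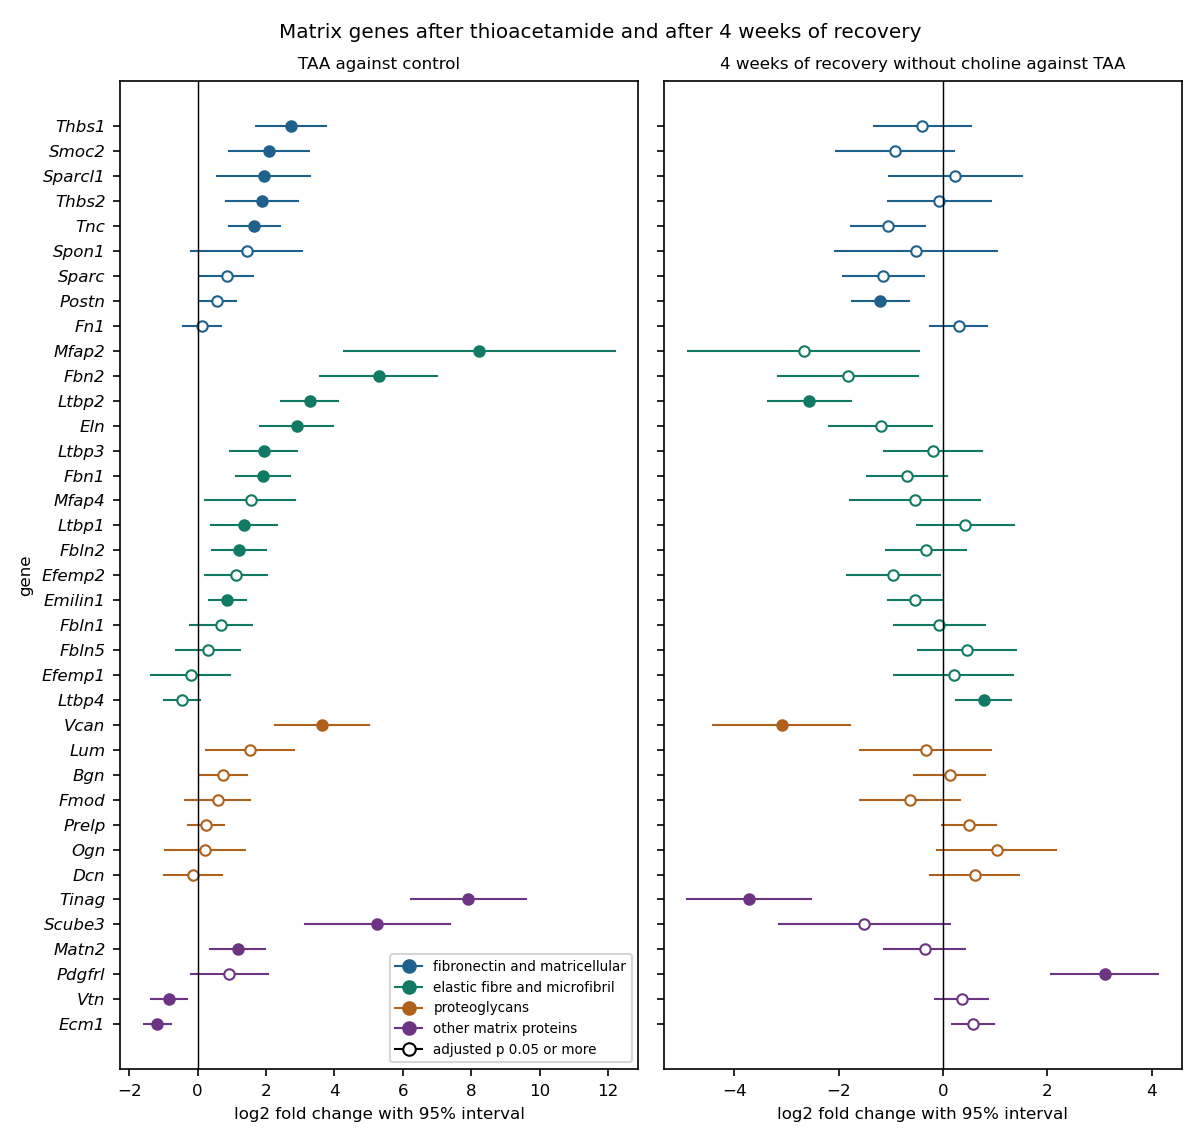
Points are log2 fold changes of the 37 genes for TAA against control (left) and 4 weeks of recovery without choline against TAA (right), bars their 95% intervals, and filled points an adjusted p under 0.05. On the left 20 points are filled, with Ltbp2 at 3.28 and Ecm1 at -1.18, and on the right 6 are filled, with Tinag at -3.71 and Pdgfrl at 3.11. The 2 comparisons share the TAA libraries, and the estimates of Mfap2 and Tinag on the left rest on controls with 0 and 2 counts.

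Genes that act on or beside these matrix proteins were counted in the same comparison, from lists drawn up with earlier results of these data known. Of 8 tested fibrillar collagen genes 5 were higher, led by Col5a2 (log2 2.65 ± 0.24, adjusted p = 0.000124), Col1a1 (4.22 ± 0.52, 0.000421), Col1a2 (2.87 ± 0.42, 0.001) and Col3a1 (2.50 ± 0.40, 0.00157). Of 5 genes for elastic fibre crosslinking 3 were higher: Lox (3.52 ± 0.62, 0.00274), Loxl2 (1.93 ± 0.36, 0.00359) and Loxl1 (1.79 ± 0.59, 0.0494). Enzymes of this group tie elastin and collagen chains together. Of 15 matrix receptor genes 6 were higher and 1 lower. The thrombospondin receptor Cd36 (1.81 ± 0.33, 0.00314), the TGF-beta-activating integrin subunit Itgb6 (4.34 ± 0.92, 0.00738) and Itgb5 (0.63 ± 0.17, 0.0233) rose, and the syndecan Sdc4 fell (-1.15 ± 0.22, 0.00419). The size of the Itgb6 change is uncertain. It had 2 and 3 counts in the controls and stood at 3.44 and 0.664 CPM in the TAA libraries. Of 11 genes for TGF-beta ligands, receptors and response, 6 were higher and none lower, among them Tgfbr2 (0.97 ± 0.15, 0.00136), Tgfb3 (2.78 ± 0.55, 0.00499), Ccn2 (1.79 ± 0.37, 0.00627) and Tgfb2 (1.92 ± 0.47, 0.0148).

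Of 15 genes for proteases that cut matrix glycoproteins and proteoglycan core proteins, 9 were higher and none lower, with a median log2 fold change of 2.17. The elastin-degrading macrophage enzyme Mmp12 (4.18 ± 0.66, adjusted p = 0.00147), Mmp7 (adjusted p = 0.00257), Adamts12 (2.98 ± 0.62, 0.00688) and the versican-cutting Adamts4 (2.30 ± 0.52, 0.00959) came first by p. Mmp7 had 0.0914 and 0.0342 CPM in control, too few counts to give the size of its change. Genes for building glycosaminoglycan chains showed 2 higher and 1 lower of 10: Chst11 (3.29 ± 0.80, 0.0139), Chpf (0.88 ± 0.26, 0.0354) and Xylt2 (-0.70 ± 0.15, 0.00705). Their median was -0.03, against 0.03 for all genes. Chst11 had 2 and 5 counts in the controls, so the size of its change is uncertain.

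Markers of the cells that could supply these transcripts moved as well. Of 9 tested cholangiocyte markers 7 were higher, with Cldn4 (5.06 ± 0.71, adjusted p = 0.000837), Ehf (4.35 ± 0.72, 0.00196), Cldn7 (3.43 ± 0.69, 0.00574) and Spp1 (3.01 ± 0.70, 0.0116) first. Summed over 10 genes they were at 46.7 and 42.8 CPM in control and at 445 and 115 CPM after thioacetamide, highest in TAA replicate 1. Of 10 stellate cell and myofibroblast markers Lrat was higher (0.77 ± 0.17, 0.00968) and Colec11 lower (-0.85 ± 0.22, 0.0187). Their sum was 204 to 250 CPM in control and 243 to 265 CPM in TAA. Reln alone was at 135 and 125 CPM in control and 119 and 127 CPM in TAA. Apart from Lrat and Colec11, mean CPM was higher in TAA for Pdgfra (18.1 against 6.25), Pdgfrb (22 against 11.5), Acta2 (5.03 against 1.69), Cygb (14.6 against 7.24), Des and Hand2. It was lower for Reln and Tagln. Of 5 tested portal fibroblast markers Slit2 (5.43 ± 1.02, 0.0039) and Cd34 (2.35 ± 0.60, 0.0172) rose. Their sum went from 4.42 to 6.81 CPM in control to 14.7 to 22.5 CPM in TAA. None of 3 tested smooth muscle or 4 mesothelial markers was called. Of 8 macrophage markers 3 rose: Gpnmb (6.66 ± 0.74, 0.000263), Trem2 (3.23 ± 0.55, 0.00227) and Cx3cr1 (3.02 ± 0.61, 0.00574). Among the uncalled ones, mean CPM was higher in TAA for Ccr2, Cd68 and Adgre1. It was lower for Clec4f (52.8 against 77.6) and Timd4 (2.21 against 4.09). The macrophage sum was 127 and 82.7 CPM in control and 89.2 and 111 CPM in TAA. Of 8 endothelial markers Clec4g (-1.07 ± 0.17, 0.00161), Oit3 (-0.56 ± 0.13, 0.0116) and Stab2 (-0.85 ± 0.22, 0.0189) fell. Cd34, which is on this list as well as the portal fibroblast list, rose as given above. Without a call, mean CPM was higher in TAA for Lyve1 (8.32 against 5.28) and Vwf (10.7 against 9.5) and lower for Plvap and Pecam1. Of 6 hepatocyte markers Cyp2e1 (-2.67 ± 0.27, 0.000188), Apoa1 (-1.57 ± 0.33, 0.00715) and Serpina1e (-3.60 ± 0.92, 0.0181) fell. No marker of these lists was at 0 in all 16 libraries. Control counts were low for Gpnmb (3 and 1), Cldn4 (2 and 4) and Slit2 (1 and 6), so the sizes of their changes are uncertain. In whole liver, more cells of a type and more RNA per cell cannot be told apart, and the part of cell composition in the matrix results was not tested.

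After thioacetamide was stopped, Ltbp2, Vcan and Tinag fell below their TAA level by 2 weeks and Pdgfrl rose above its own. At 1 week without choline no member differed from TAA at an adjusted p under 0.05, against 3.75% of all genes (1.97% higher and 1.78% lower). At an unadjusted p under 0.05 from edgeR's test there were 5 (Tinag, Vcan, Ltbp2, Tnc and Ltbp4), against 19.4% of all genes. DESeq2 called 3 (Vcan, Ltbp2 and Tinag, all lower), but its share over all genes was not counted. At 2 weeks 6 members were lower than in TAA and 1 was higher, against 5.88% and 5.13% of all genes (11% in all). Both 2-week libraries lay below both TAA libraries in 26 of the 37 and above in 6, against 32.6% and 28.9% of all genes, and the median log2 fold change of the 37 was -0.76 against -0.03. At 4 weeks 4 were lower and 2 higher, with 8.39% and 6.47% of all genes called (14.9% in all) and a median of -0.35 against 0.01. Without the 2 libraries low in Malat1, the calls against TAA were 0 at 1 week (11.1% of all genes; 6 of the 37 at an unadjusted p under 0.05, against 25.7%), 5 at 2 weeks (Vcan, Ltbp2, Tinag and Matn2 lower, Fn1 higher; 20.1%) and 8 at 4 weeks (Postn, Tnc, Vcan, Ltbp2 and Tinag lower, Fn1, Efemp1 and Pdgfrl higher; 25.5%). The medians were then 0.30, -0.43 and 0, with TAA represented by 1 library. These comparisons and TAA against control share the TAA libraries.

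Ltbp2, Vcan and Tinag were lower than in TAA at both 2 and 4 weeks. Ltbp2 was at 4.60 and 6.57 CPM at 1 week, 2.72 and 2.18 CPM at 2 weeks and 1.47 and 2.66 CPM at 4 weeks. Each of these libraries was below both TAA libraries, and the log2 fold change was -2.32 ± 0.36 at 2 weeks (adjusted p = 0.00305) and -2.56 ± 0.37 at 4 weeks (0.00141). Vcan was at 0.579 and 1.03 CPM, then 0.213 and 0.595 CPM, then 0.239 and 0.525 CPM at the same times, with every library under the TAA range. Its log2 fold change was -3.00 ± 0.60 at 2 weeks (0.00942) and -3.09 ± 0.60 at 4 weeks (0.00636). Tinag was at 1.87 and 4.05 CPM at 1 week, 1.83 and 2.22 CPM at 2 weeks and 0.478 and 1.13 CPM at 4 weeks. It lay below TAA and above control at each time, by -2.38 ± 0.51 against TAA at 2 weeks (0.0127) and -3.71 ± 0.55 at 4 weeks (0.00161).

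Fbn2, Eln and Thbs1 were called lower than TAA at 2 weeks but not at 4 weeks. Fbn2 was at 4.43 and 8.48 CPM at 1 week, 1.45 and 0.953 CPM at 2 weeks and 1.39 and 3.41 CPM at 4 weeks. Eln was at 16 and 26.8 CPM, then 12.7 and 9.76 CPM, then 9.92 and 19.7 CPM. Thbs1 was at 5.31 and 7.77 CPM, then 3.02 and 2.94 CPM, then 5.30 and 9.26 CPM. In all 3 genes the 2-week libraries lay below TAA, and at 4 weeks the second library of the group was the higher one. Their log2 fold changes at 2 weeks were -2.83 ± 0.66 for Fbn2 (adjusted p = 0.0192), -1.59 ± 0.46 for Eln (0.0457) and -1.69 ± 0.44 for Thbs1 (0.0326). The difference between 2 and 4 weeks itself was not tested.

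At 4 weeks Postn (periostin, an integrin-binding protein of scar and tendon) was lower than in TAA and Ltbp4 higher. Postn was at 16.5 and 13.7 CPM in TAA, 10.2 and 11.5 CPM at 1 week, 10.8 and 9.37 CPM at 2 weeks and 6.45 and 6.64 CPM at 4 weeks. The 4-week libraries were the lowest of these, -1.20 ± 0.25 on the log2 scale against TAA (adjusted p = 0.00875). Ltbp4 was at 76.3 and 110 CPM at 4 weeks against 56.4 and 52.0 CPM in TAA (0.78 ± 0.24, 0.0483). Of the 6 calls at 4 weeks, Ltbp2, Tinag and Pdgfrl held with each library left out. Ltbp4 was lost without any 1 of the 4 libraries (adjusted p up to 0.332), Postn without TAA replicate 1, 4-week replicate 1 or 4-week replicate 2, and Vcan without 4-week replicate 1 (lost calls at 0.0542 to 0.0733 in that fit). Of the 7 at 2 weeks only Ltbp2 held with each library left out: 1 call remained without TAA replicate 1, 6 without TAA replicate 2, and 2 without either 2-week library.

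Pdgfrl followed the opposite course. It encodes a secreted protein that resembles the ligand-binding part of the PDGF receptor. It was at 0.457 and 0.616 CPM in control, 0.797 and 1.3 CPM in TAA and 1.16 and 0.939 CPM at 1 week without choline. It then stood at 2.81 and 5.32 CPM at 2 weeks and 6.53 and 11.4 CPM at 4 weeks. With choline it was at 1.21 and 0.901 CPM at 1 week, 3.42 and 1.5 CPM at 2 weeks and 18.5 and 13.5 CPM at 4 weeks. Both 4-week groups were above every library of control, TAA and 1 week. Against TAA the log2 fold change was 1.96 ± 0.46 at 2 weeks (adjusted p = 0.0201), 3.11 ± 0.47 at 4 weeks (0.00181) and 3.94 ± 0.48 at 4 weeks with choline (0.000932). Against control it was 4.04 ± 0.51 at 4 weeks (0.00285) and 4.87 ± 0.52 at 4 weeks with choline (0.00255). At 4 weeks the Pdgfrl call against TAA and against control, with and without choline, held with each library left out, and without the 2 libraries low in Malat1 (adjusted p 0.00273 to 0.0144). After thioacetamide itself it did not pass (0.93 ± 0.51, adjusted p = 0.22).

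**Figure D3:**
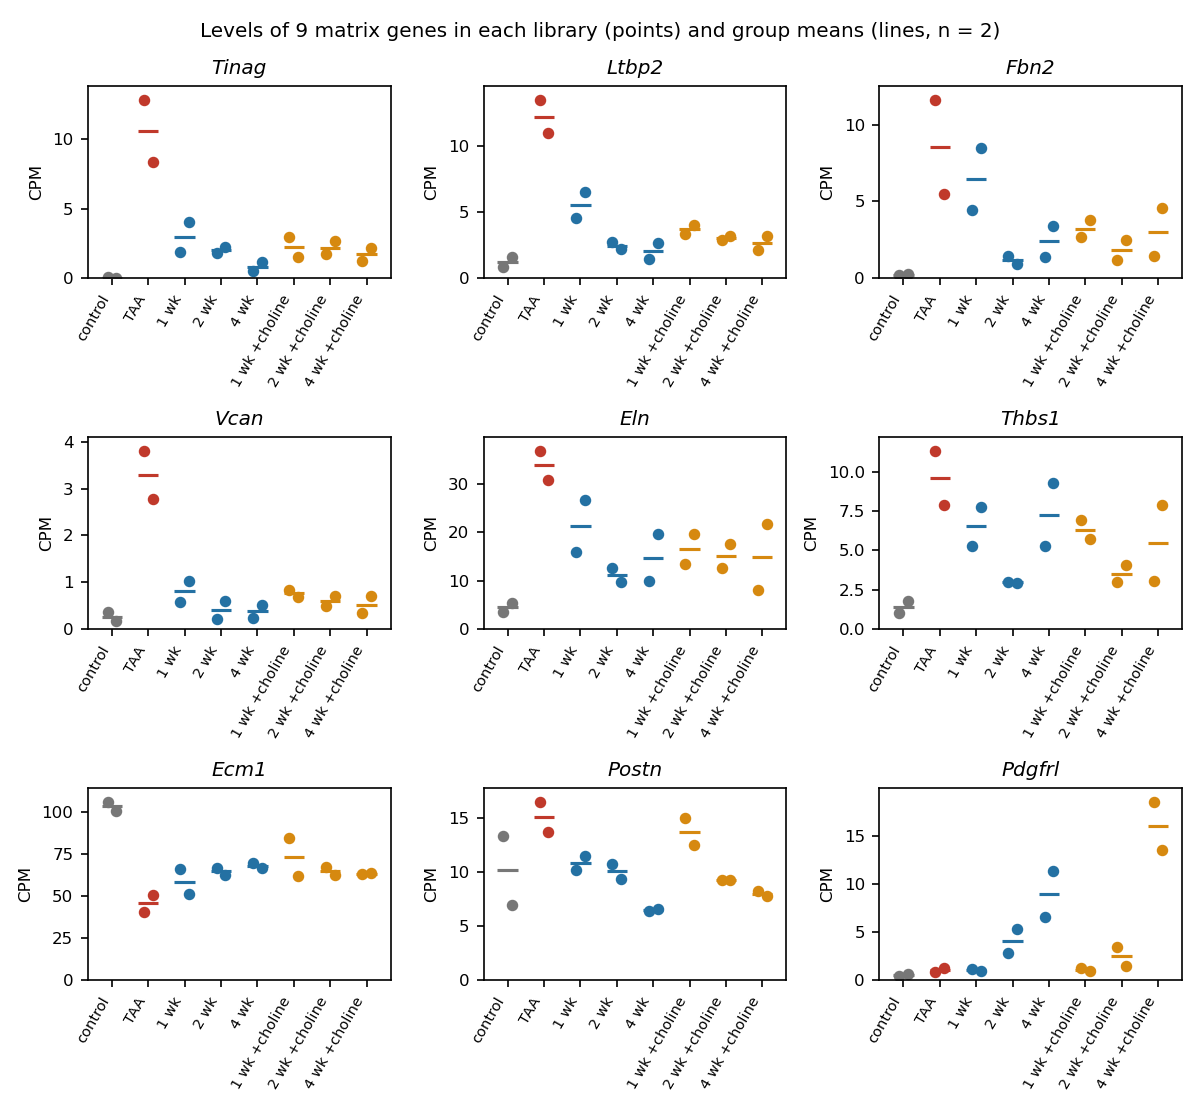
Points are CPM in each of the 16 libraries for 9 matrix genes and short lines the group means (n = 2), on linear axes from 0, with recovery without choline in blue and with choline in orange. Tinag, Ltbp2 and Vcan peak in the TAA group, Ecm1 is lowest there on the CPM scale but not on the TPM scale, and Pdgfrl peaks at 4 weeks of recovery, at 6.53 to 18.5 CPM.

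Some matrix genes were above control at each time of recovery. At 1 week 9 members were higher and 1 lower, against 1.9% and 2.35% of all genes (4.26% in all). At 2 weeks 2 were higher (Tinag and Pdgfrl) and none lower, against 0.15% and 0.249% (0.399% in all). At 4 weeks 12 were higher and 1 lower, against 7.33% and 12.2% (19.5% in all). The medians over the 37 were 0.98, 0.53 and 0.88 on the log2 scale, with 0.06, 0.01 and 0.04 over all genes. All 3 comparisons use the same 2 control libraries, of which replicate 1 stood apart.

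The genes called at 1 week were Tinag, Fbn2 (log2 4.89 ± 0.78, adjusted p = 0.017), Ltbp2 (2.15 ± 0.37, 0.0217), Scube3 (4.80 ± 0.97, 0.0361), Fbn1 (1.80 ± 0.36, 0.0361), Thbs1 (2.17 ± 0.46, 0.0411), Eln (2.24 ± 0.48, 0.0412), Ltbp3 (2.05 ± 0.45, 0.0429) and Ltbp1 (1.88 ± 0.45, 0.0461), and Ecm1 lower (-0.82 ± 0.18, 0.0428). They were elastic fibre genes, TGF-beta carriers and a TGF-beta activator for the most part. Fbn1 was at 20.5 and 34.7 CPM, Scube3 at 4.15 and 6.63 CPM, Ltbp3 at 9.57 and 12.8 CPM, Ltbp1 at 10.9 and 14.2 CPM and Ecm1 at 66.3 and 51.2 CPM. Every one of these libraries lay outside the control range given above in CPM. The mean TPM of Ecm1 was 32.9 ± 4.53 at 1 week against 38.1 ± 8.62 in control (SD, n = 2), a difference smaller than the spread of the controls. Tinag was 77.7 times its control level (95% counting interval 21.2 to 646; adjusted p = 0.00611) and was the only call that held with each library left out. Without control replicate 1, 1 call remained (the 9 lost had adjusted p of 0.0844 to 0.233), without 1-week replicate 1, 2, and without 1-week replicate 2, 1. Without the 2 libraries low in Malat1, Ltbp2, Scube3 and Tinag were called, where 1.58% of all genes were.

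At 2 weeks Tinag was 51.9 times its control level (counting interval 14 to 435; adjusted p = 0.0162) and Pdgfrl was higher by 2.90 ± 0.50 on the log2 scale (0.0416). Both calls were lost without control replicate 1 (adjusted p of 0.0796 and 0.167) and without either 2-week library, and none of the 37 was called without the 2 libraries low in Malat1 (0.923% of all genes). At an unadjusted p under 0.05 there were then 8 of the 37, against 15.3% of all genes. Scube3, at 1.74 and 1.67 CPM, and Fbn2 were above both controls at 2 weeks without passing (adjusted p of 0.11 and 0.114).

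At 4 weeks, besides Pdgfrl, the higher genes by smallest p were Tinag (20.7 times control, counting interval 5.39 to 177; adjusted p = 0.0136), Thbs1 (log2 2.33 ± 0.47, 0.0136), Fbn2 (3.47 ± 0.78, 0.0174), Ltbp1 (1.78 ± 0.45, 0.0237), Scube3 (3.74 ± 0.96, 0.0253), Ltbp3 (1.74 ± 0.45, 0.0259), Thbs2 (1.82 ± 0.48, 0.0275), Eln (1.71 ± 0.48, 0.032) and Sparcl1 (2.17 ± 0.63, 0.0351). Fbn1 and Prelp (a collagen-binding leucine-rich protein of basement membranes) were also higher and Ecm1 lower. Ltbp1 was at 8.29 and 15.2 CPM, Ltbp3 at 5.90 and 12.2 CPM, Thbs2 at 6.14 and 12.3 CPM, Sparcl1 at 12.1 and 23.6 CPM and Scube3 at 1.79 and 3.38 CPM. In each of these 5 genes the second library was about double the first, and both were above the controls. Prelp was at 29.9 and 42.9 CPM in the control libraries and at 49.8 and 71.9 CPM in the 4-week libraries (0.74 ± 0.24, 0.0485). It was the 1 small leucine-rich proteoglycan gene called by edgeR's test with the low-count filter and all 16 libraries. DESeq2 also called Lum after thioacetamide and at 1 week against control, and Bgn at 1 and 4 weeks. Without the filter, edgeR's test also called Lum and Bgn after thioacetamide and at 1 and 4 weeks against control, and Ogn at 4 weeks. Ecm1, at 69.7 and 66.8 CPM, was below both controls in CPM (-0.61 ± 0.18, 0.0395), but its mean TPM was 39.9 ± 1.4 against 38.1 ± 8.62 in control (SD, n = 2), so the direction turned with the scale. Only Pdgfrl held with each library left out: 1 call remained without control replicate 1, 11 without control replicate 2, 3 without 4-week replicate 1 and 1 without 4-week replicate 2. Without the 2 libraries low in Malat1, Scube3 and Pdgfrl were called, with 11.8% of all genes.

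With 4 weeks of choline, 5 members were lower than in TAA and 2 higher, against 7.43% and 6.23% of all genes (13.7% in all). Ltbp2, at 2.15 and 3.16 CPM, was lower by -2.20 ± 0.36 on the log2 scale (adjusted p = 0.00305), Tinag, at 1.26 and 2.20 CPM, by -2.60 ± 0.51 (0.00709), and Vcan, at 0.345 and 0.698 CPM, by -2.65 ± 0.58 (0.0124). All 3 were below both TAA libraries. Postn, at 8.24 and 7.82 CPM (-0.91 ± 0.25, 0.032), and Tnc, at 1.84 and 2.09 CPM (-1.16 ± 0.33, 0.0363), were lower too. Pdgfrl and Ltbp4, at 81.3 and 116 CPM (0.86 ± 0.24, 0.0339), were higher. Ltbp2 and Pdgfrl held with each library left out, and Postn, Tnc, Vcan, Ltbp4 and Tinag were lost in at least 1 such fit, with 2 to 5 of the 7 calls remaining (2 without choline replicate 1, 3 without TAA replicate 1, 4 without choline replicate 2 and 5 without TAA replicate 2). Against control, 4 members were higher and none lower, against 1.09% and 1.57% of all genes (2.65% in all): Pdgfrl, Tinag (44.5 times control, counting interval 12 to 373; 0.0168), Fbn2 (1.46 and 4.59 CPM, log2 3.79 ± 0.78, 0.0436) and Scube3 (2.11 and 4.41 CPM, 4.07 ± 0.96, 0.0499). Only Pdgfrl held with each library left out there. Fbn2, Scube3 and Tinag were lost without control replicate 1 or choline replicate 2 (adjusted p of 0.0649 to 0.306), and Scube3 also without choline replicate 1. Without the 2 libraries low in Malat1, 9 members were called against TAA (24% of all genes) with a median of 0.09 where it was -0.33 with them, and 2 (Tinag and Pdgfrl) against control (2.42%).

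Within several groups the matrix genes differed together between the 2 libraries. In 33 of 37 genes the second library was the higher one at 1 week without choline, at 4 weeks without choline and at 4 weeks with choline, while in TAA it was the higher one in 4. Among all tested genes the second library was higher in 48.5% to 51.3%, whatever the group. The median log2 ratio of the second to the first library over the 37 was 1.03 at 4 weeks with choline, 0.73 at 4 weeks without, 0.50 at 1 week without and -0.45 in TAA, against -0.01 to 0.01 over all genes in those groups. In the other 4 groups it ran from -0.09 to 0.35.

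The summed proteoglycan genes illustrate this: 212 and 411 CPM in the libraries of 4 weeks with choline, 266 and 399 CPM at 4 weeks without, and 210 and 226 CPM at 2 weeks without. The elastic fibre genes summed to 161 and 278, 166 and 257, and 167 and 162 CPM in the same groups. Summed cholangiocyte markers were at 53.2 and 163 CPM, 97.1 and 163 CPM, and 78.6 and 77.0 CPM there, and at 135 and 211 CPM at 1 week without choline. They were thus higher in the same library of the group as the matrix genes in each group with a wide spread. Stellate cell and myofibroblast markers were at 206 and 351 CPM at 4 weeks with choline and 232 and 332 CPM at 4 weeks without. Hepatocyte markers were lower in the library with higher matrix genes at 4 weeks with choline (78500 and 63300 CPM), at 4 weeks without (61700 and 59400 CPM) and at 1 week without (64900 and 57900 CPM), and higher in it in TAA (67700 and 58100 CPM). The part of these marker levels in the matrix values was not tested.

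**Figure D4:**
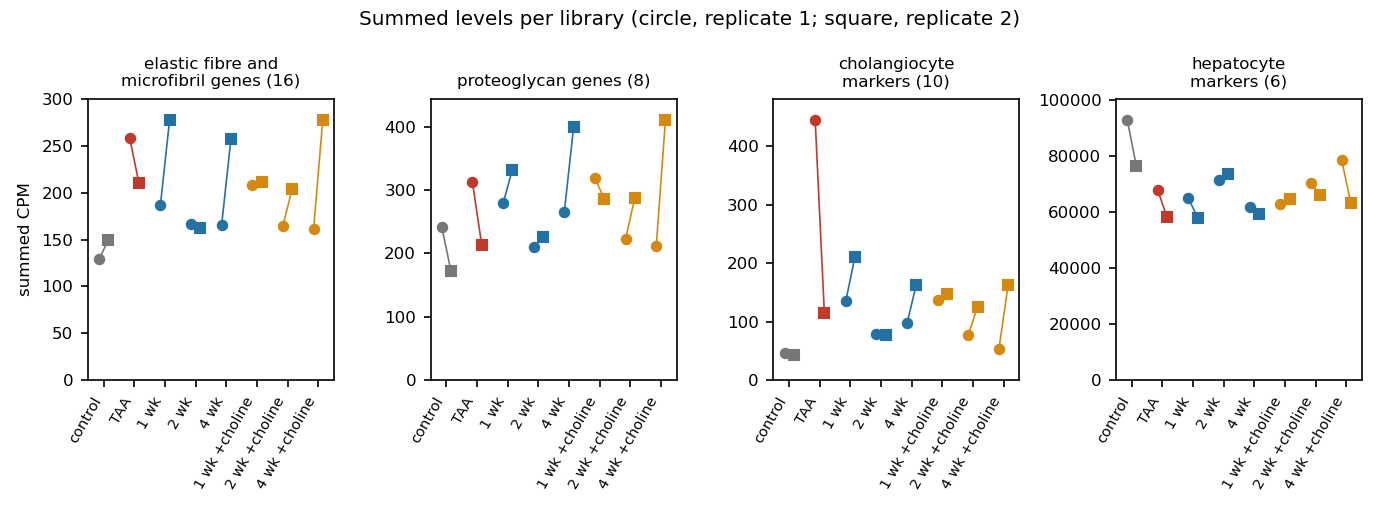
Summed CPM per library for the 16 elastic fibre and microfibril genes, the 8 proteoglycan genes, 10 cholangiocyte markers and 6 hepatocyte markers, on linear axes from 0, with lines joining the 2 libraries of a group. In the 4-week groups the second library is the higher one in the first 3 panels, and in TAA the first library is, at 445 against 115 CPM for the cholangiocyte markers.

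Whether choline changed the matrix genes was asked at each time by comparing recovery with and without it. No member was called at 1, 2 or 4 weeks or for the mean over the 3 times by edgeR's quasi-likelihood test, and none had an unadjusted p under 0.05, against 0.891%, 1.16%, 5.88% and 3.05% of all genes. DESeq2 called none either, but its share over all genes was not counted. By edgeR's test 0% of all genes were called at 1 week, 0% at 2 weeks, 0.052% at 4 weeks and 0.0173% for the mean. The median log2 fold change of the 37 was -0.11 at 1 week, 0.26 at 2 weeks, 0.07 at 4 weeks and 0.04 for the mean. At 2 weeks 31 of the 37 log2 fold changes were above 0, against 49.8% of all genes, and both choline libraries lay above both others in 11 genes and below in 2, against 18.6% and 18.3% of all genes. At 1 week these counts were 3 and 7 (15.3% and 16%), and at 4 weeks 3 and 1 (19.9% and 22.9%). The interaction of choline with time called no member and 0% of genes (1.91% at an unadjusted p under 0.05), and Pdgfrl had the smallest unadjusted p of the members, 0.075 (adjusted p = 1).

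The genes named next are those with the smallest p at each time, and none of them passed. At 1 week they were Tnc, Ecm1, Ltbp2, Fbn2 and Postn. Tnc was at 4.41 and 2.81 CPM with choline against 2.25 and 2.55 CPM without, a log2 difference of 0.59 with a 95% interval from -0.12 to 1.29. Ecm1 was at 84.9 and 61.8 CPM against 66.3 and 51.2 CPM (0.32, interval -0.08 to 0.72). Ltbp2 was at 3.32 and 4.06 CPM against 4.60 and 6.57 CPM (-0.60, interval -1.36 to 0.16). These intervals all include 0, and the Ecm1 groups overlapped. Fbn2 was at 2.68 and 3.78 CPM against 4.43 and 8.48 CPM (-1.0, interval -2.32 to 0.32), and Postn at 15 and 12.5 CPM against 10.2 and 11.5 CPM (0.34, interval -0.19 to 0.88).

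At 2 weeks the genes with the smallest p were Matn2, Fmod, Pdgfrl, Fbln1 and Sparcl1. Matn2 was at 2.09 and 1.5 CPM with choline and 1.23 and 1.07 CPM without (0.64, interval -0.18 to 1.45). Fmod was at 3.64 and 3.22 CPM against 2.08 and 2.06 CPM (0.72, interval -0.23 to 1.68). The choline libraries were the higher ones in both, within the error of the fit. Pdgfrl, at -0.73, had an interval from -1.69 to 0.24 with overlapping groups. Fbln1 (fibulin 1) was at 1.69 and 2.30 CPM against 1.02 and 1.47 CPM (0.68, interval -0.23 to 1.58), and Sparcl1 at 8.74 and 14.1 CPM against 6.51 and 6.87 CPM (0.77, interval -0.55 to 2.09).

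At 4 weeks Tinag and Pdgfrl came first. Tinag, at 1.26 and 2.20 CPM with choline against 0.478 and 1.13 CPM without, differed by 1.10 (interval -0.05 to 2.26), and Pdgfrl, at 18.5 and 13.5 CPM against 6.53 and 11.4 CPM, by 0.83 (interval -0.09 to 1.75). The choline libraries were above the others without overlap in both genes, and the intervals just included 0. Postn (0.29, interval -0.25 to 0.84), Efemp2 (fibulin 4, which organises elastin; 0.44, interval -0.46 to 1.34) and Sparc (0.36, interval -0.42 to 1.13) followed. For the mean over the 3 times Fmod (0.36, interval -0.19 to 0.91), Matn2 (0.29, interval -0.17 to 0.75), Postn (0.17, interval -0.14 to 0.49), Ogn (0.30, interval -0.36 to 0.95) and Tinag (0.27, interval -0.37 to 0.91) had the smallest p. In that mean 33 of the 37 intervals lay between -1 and 1, so differences of 2-fold or more lie outside them, and the median half-width was 0.54. At single times 12 to 15 of the 37 did, and the widest interval was that of Mfap2 (half-width 2.08 to 2.35). Differences under these widths were not detectable with 2 libraries a group. The intervals are not adjusted for the number of genes tested, so differences larger than these widths could also go uncalled.

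**Figure D5:**
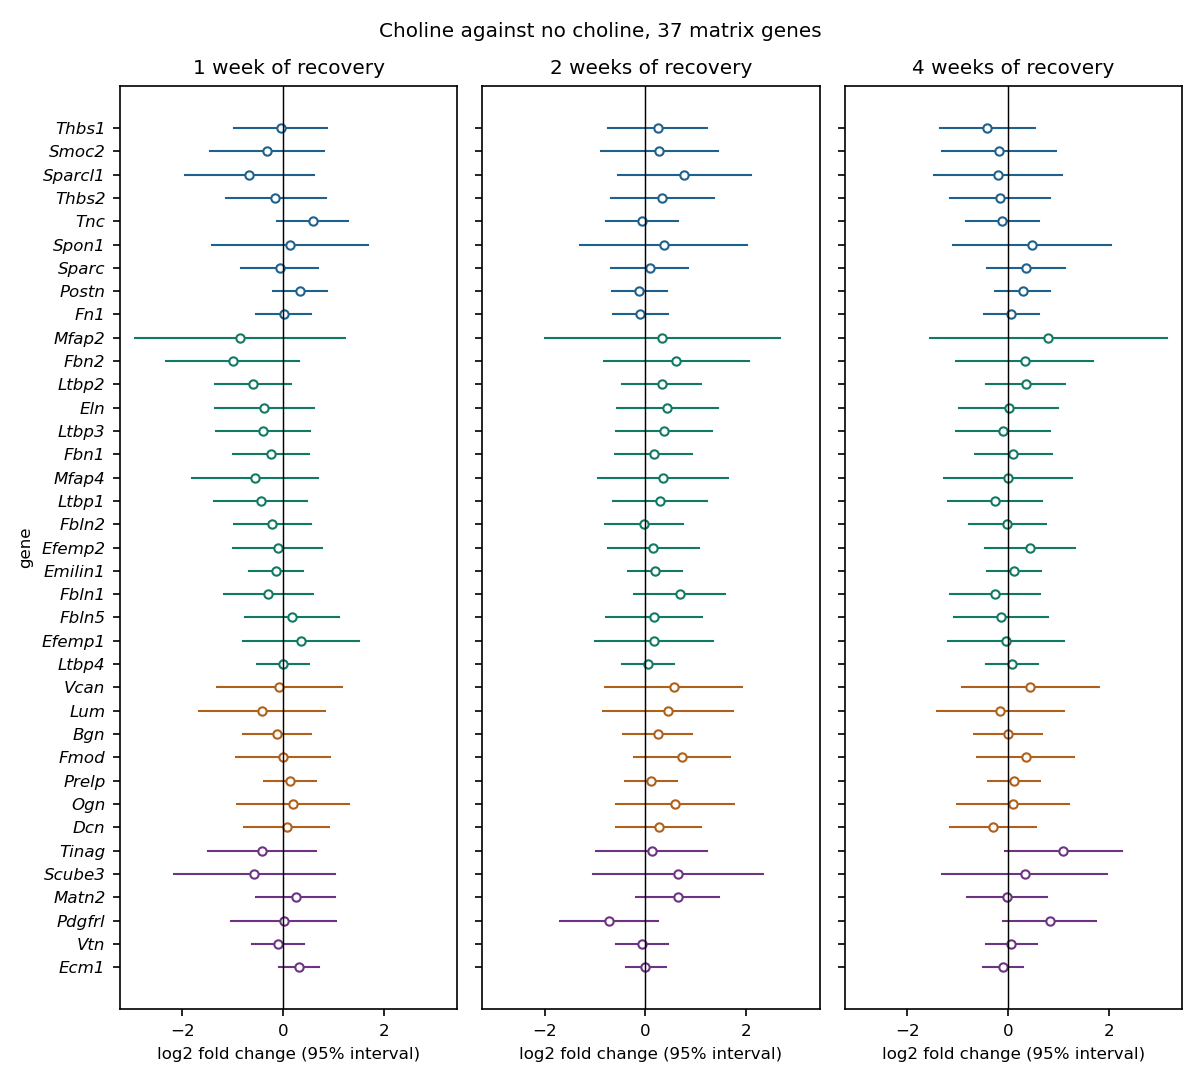
Points are log2 fold changes of choline against no choline for the 37 matrix genes at 1, 2 and 4 weeks of recovery, and bars their 95% intervals. Every bar crosses 0, and the points run from -1.0 (Fbn2, 1 week) to 1.10 (Tinag, 4 weeks).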

How the data were processed

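Per the labels' protocols, TRIzol was used to extract RNA from mouse liver, followed by rRNA depletion and a directional library kit. The authors deposited expected counts, estimated reads per gene that need not be whole (8.7% of values had a fraction), and TPM, which scales each library to the same total by transcript length. The submitters' processing notes list STAR 2.7.10b, RSEM 1.3.3, DESeq2 1.36.0 and GRCm38 but give no roles. For the annotation release and the strand setting the sources used here say nothing, so genes that overlap another are uncertain. Each deposited table also held value columns that matched no sample (2 per file), which were not used.

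Expected counts were rounded to whole numbers. In edgeR 4.0.16 (R 4.3.3) genes were filtered with filterByExpr, scaled by TMM and fitted with a robust quasi-likelihood model of 8 group means over all 16 libraries, leaving 8 residual degrees of freedom. Tests were two-sided and Benjamini-Hochberg adjusted over the 17292 genes, and a gene was called at an adjusted p under 0.05. The standard error is the log2 fold change over the root of F. The procedure was run on simulated counts for TAA against control, with the same spread for every gene and no library that stood apart. That run does not show how the calls behave in these data. Counting intervals are exact 95% Poisson intervals of a ratio. TPM served to compare levels between genes and to check the direction of changes.

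No pair of libraries of a group looked like 1 library deposited again (chi-square per degree of freedom 13.5 to 221.6), which does not show that they are independent samples. The members and lists were chosen with earlier results of these data known. Described with values were each called member of TAA against control, each called member of a recovery comparison (at most 10 by smallest p), the called members or else the 5 with the smallest p for choline, and up to 4 called genes of each other list. Some other values are given as examples, chosen after they were seen. Alternatives were DESeq2's size factors, the test of DESeq2 1.42.0, no filter, a replicate block, the compared groups alone, each library left out and, chosen after seeing the data, leaving out the 2 libraries low in Malat1.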

Additional observations from a re-analysis of the deposited data

How the results depend on the processing

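With 2 libraries a group, the number of members called depended on the test and on single libraries. With DESeq2's size factors in place of TMM every count stayed within 1.5 times. No calls were made on TPM, where the direction or size of some changes differed, as given above. Among the alternative fits, the share of all genes called is given only without the 2 libraries low in Malat1, in the sections above. The other counts here therefore cannot be set against all genes. The test of DESeq2 called 3 members at 1 week, 12 at 2 weeks and 10 at 4 weeks against TAA, and 17 at 1 week, 6 at 2 weeks and 16 at 4 weeks with choline against control. With no filter on low counts it was 3, 16 and 13 against TAA and 11 at 4 weeks with choline, 21 at 1 week and 12 at 2 weeks against control, 19 at 4 weeks with choline, and 1 (Sparcl1) for the interaction of choline with time. Fits of the compared groups alone, which have fewer libraries, called 1 member (Tinag) after thioacetamide and 0 in every comparison of recovery with control. Without the 2 libraries low in Malat1 the counts were 7 after thioacetamide and, against control, 3 at 1 week, 0 at 2 weeks, 2 at 4 weeks and 2 at 4 weeks with choline.

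With 1 library left out, the counts ran from 11 to 17 for TAA against control, from 1 to 9 at 2 weeks, 3 to 7 at 4 weeks and 3 to 5 at 4 weeks with choline against TAA, and from 1 to 15, 0 to 7, 1 to 15 and 1 to 14 at 1, 2 and 4 weeks and 4 weeks with choline against control. The 1-week comparison with TAA and the choline comparisons stayed at 0. Of 396 such values for named genes, 1 changed sign: Ogn, choline over the 3 times, ran from -0.11 to 0.53. The others kept their direction, but many calls of the main fit fell below the threshold, as given in the sections above. The 396 also include choline genes that did not pass in the main fit and so had no call to lose.

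Whether replicate numbers pair the samples was not settled. The difference between the second and the first library was correlated between groups over all tested genes. This correlation was over 0.1 in 8 of 28 pairs of groups and under -0.1 in 2, and ran from -0.21 to 0.59. With the replicate number as a block the counts were 10 at 4 weeks against TAA and 10 at 4 weeks with choline against control, and the other 12 stayed within 1.5 times. The cause of these shifts was not tested beyond the number of libraries and genes in each fit.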
